A study of Mus musculus with 6 samples.

Results

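A set of 31 genes of the cell cycle was followed in the lungs of mice fed a high fat diet and of mice fed a control diet. The genes were chosen by name: 20 act in mitosis and 11 in replication licensing, DNA synthesis or the supply of nucleotides. They were found on the array as every probe set whose annotation names only that gene, which gave 68 probe sets for 30 of the 31 genes, of 45101 probe sets in all. No probe set was annotated with cyclin B1 (Ccnb1) alone, and Ccnb1 is not analysed here. The study measured RNA in whole lung of 6 wild type mice, 3 on a high fat diet and 3 on a control diet, with 1 Affymetrix array per mouse. The labels name no strain, age, sex or length of the diet, and no date from which a batch could be tested. The values are MAS5 signals, in which the probes of a probe set are combined into 1 intensity per array, and the trimmed mean of the deposited values was 500 on every array. A signal is therefore relative to the rest of its array, and in whole lung fewer cells of a type and less RNA per cell cannot be told apart.

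Dividing cells switch on their genes in waves. In late G1 and S phase, E2F factors drive genes for the MCM helicase, the sliding clamp PCNA and the enzymes that make deoxynucleotides, and in G2 and mitosis the cyclin B and CDK1 kinase, the Polo and Aurora kinases, the spindle checkpoint and the spindle motors follow. In quiescent cells the DREAM complex holds both waves down, through E2F sites in the first and through CHR elements paired with CCAAT boxes in the second. The adult lung turns over slowly, and its few cycling cells include macrophages, lymphocytes, endothelial cells and epithelial progenitors. Transcripts of these genes may thus come from a small share of the tissue, but whole lung RNA does not show from which cells. The lung identity of the samples was clear from the markers, since surfactant protein C (Sftpc) had signals of 45581 to 57324 in high fat lungs and 32996 to 69407 in control lungs.

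The promoter letters that define these waves were looked up in RefSeq windows of GRCm38.p6 that run from 250 bases before to 50 bases after a gene's start. Windows were found for 26 of the 31 genes, 28 windows in all. The CHR letters TTTGAA, searched on both strands, were in 12 of 17 windows of mitosis genes and in 1 of 11 windows of replication genes, against 17.9 percent of all 32851 promoter windows. CCAAT was in 15 of 17 and 9 of 11 windows, against 37.4 percent of all. The E2F letters TTTCGCGC or TTTGGCGC, which can overlap each other on opposite strands, were in 4 of 11 windows of replication genes and 1 of 17 of mitosis genes, against 0.813 percent of all. A match describes the letters only and does not show a bound site. The stretches printed here are the 130 bases before the start of 6 members, written 5′ to 3′ and in lower case except for the searched letters. Cdc20 (chr4:118437344-118437473, minus strand), Cdk1 (chr10:69352913-69353042, minus strand), Ube2c (chr2:164769799-164769928, plus strand) and Top2a (chr11:99024190-99024319, minus strand) are shown because they are mitosis genes for which high fat replicate 3 had the highest signal of its group, with CHR and CCAAT in capitals on either strand. Mcm6 (chr1:128359706-128359835, minus strand) and Rrm1 (chr7:102441565-102441694, plus strand) are replication genes, with E2F letters and CCAAT in capitals where they occur, and in the Rrm1 stretch only CCAAT does. Mcm6 is shown because it holds several E2F matches, and Rrm1 because it has the only member probe set that passed the test as deposited.
Cdc20: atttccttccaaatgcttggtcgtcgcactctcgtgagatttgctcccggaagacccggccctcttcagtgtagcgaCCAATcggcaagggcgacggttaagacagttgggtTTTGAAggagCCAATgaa
Cdk1: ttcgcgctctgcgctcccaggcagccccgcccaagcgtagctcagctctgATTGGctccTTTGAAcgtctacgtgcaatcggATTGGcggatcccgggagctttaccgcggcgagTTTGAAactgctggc
Ube2c: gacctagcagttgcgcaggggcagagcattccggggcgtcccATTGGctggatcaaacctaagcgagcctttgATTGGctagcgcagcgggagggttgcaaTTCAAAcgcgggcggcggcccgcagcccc
Top2a: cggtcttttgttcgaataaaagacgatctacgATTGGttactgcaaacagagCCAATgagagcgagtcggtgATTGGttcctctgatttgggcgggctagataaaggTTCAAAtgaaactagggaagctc
Mcm6: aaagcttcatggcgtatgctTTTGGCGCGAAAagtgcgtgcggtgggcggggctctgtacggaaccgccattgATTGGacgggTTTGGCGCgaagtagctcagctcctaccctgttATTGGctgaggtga
Rrm1: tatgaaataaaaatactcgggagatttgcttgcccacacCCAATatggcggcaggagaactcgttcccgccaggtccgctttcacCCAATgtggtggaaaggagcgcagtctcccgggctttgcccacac

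No tested cell cycle gene passed the test for a difference between the diets that was used for the whole array. A gene was read from its brightest probe set that names it alone, and probe sets were tested only if their mean log2 signal over the 6 mice reached the 40th percentile, a signal of 70.3. That left 41 of the 68 member probe sets and 24 of the 31 genes, 14 of mitosis and 10 of replication. By limma, a moderated linear model over all probe sets with Benjamini-Hochberg adjustment, 0 of the 24 were called at an adjusted p under 0.05, against 6.75 percent of all 12689 genes tested, of which 4.56 percent were called higher and 2.20 percent lower in high fat lungs. At an unadjusted p under 0.05 there were 2 of 24, Bub1 and Mcm4, against 25.5 percent of all genes, and Bub1 passed the filter only through its high fat mean. The signals of the 2 groups did not overlap for 4 of 24 genes, Nusap1 and Mcm4 toward higher and Tpx2 and Rrm1 toward lower in high fat lungs, against 31.8 percent of all genes. The median log2 difference, high fat minus control, was 0.06 over the 24 members and 0.06 over all genes tested. For 16 of the 24 the 95% interval of the fold lay wholly between 0.5 and 2, 7 of 14 mitosis genes and 9 of 10 replication genes, so a larger difference was outside the interval for these and not for the other 8.

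**Figure D1:**
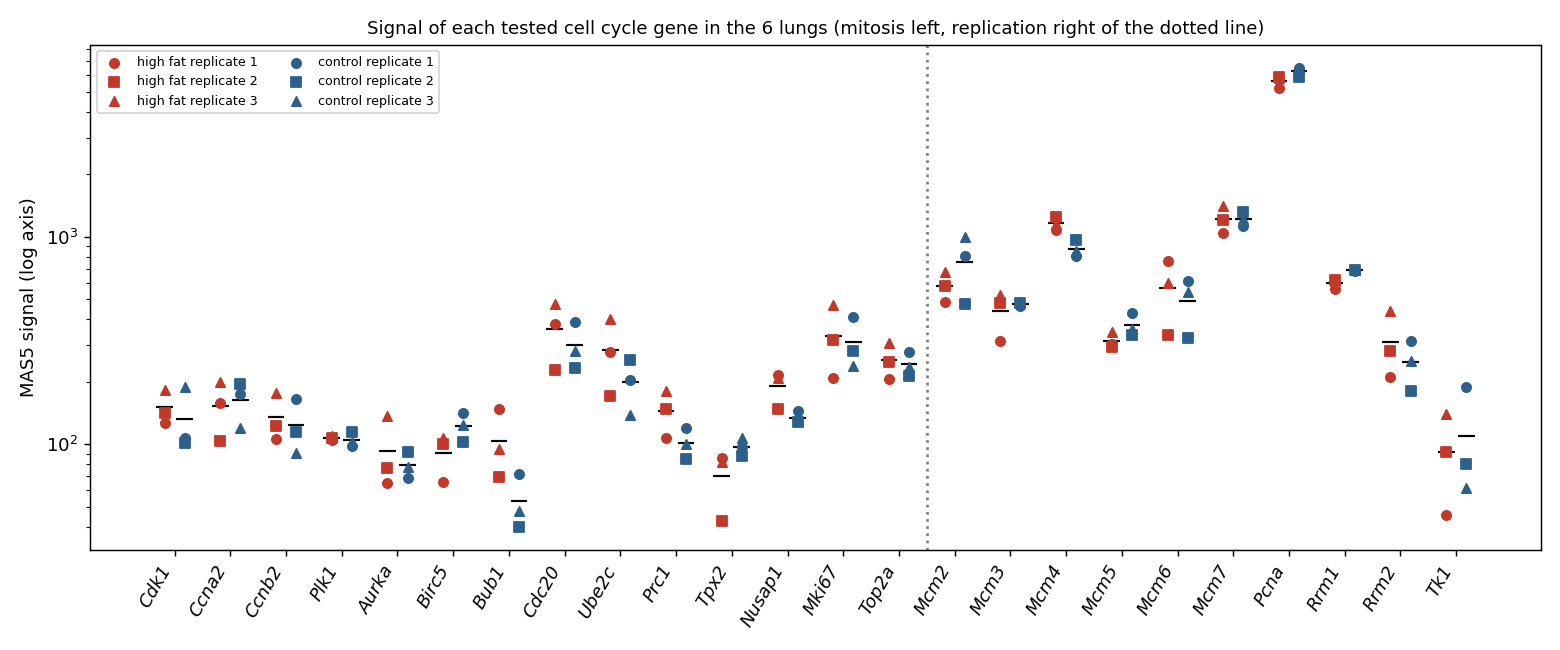
MAS5 signal (log axis) of the 24 tested genes in each mouse, high fat in red left of control in blue, with a marker shape per replicate and a black line at the group mean. The groups overlap for 20 of the 24 genes, and the red triangles of high fat replicate 3 are the highest red points for 17 genes.

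The 2 general markers of cycling cells did not separate the diets. Mki67 encodes Ki-67, a coat of mitotic chromosomes that is used to count dividing cells. Its signal was 208.7, 318.8 and 467.2 in the high fat mice, against 409.1, 282.9 and 236.9 in the control mice. The lowest and the highest mouse were thus both on the high fat diet, and the log2 difference was 0.06 (95% interval -0.66 to 0.78, limma adjusted p = 0.93). Top2a, the topoisomerase that untangles replicated chromosomes, had signals of 206.0, 249.3 and 309.2 in high fat and 279.0, 214.1 and 234.4 in control lungs. Its log2 difference of 0.06 had a narrower interval, -0.44 to 0.56 (limma adjusted p = 0.89), which leaves out a fold above 1.47.

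The cyclin and CDK core of mitosis was equally mixed. Cdk1, the kinase that drives entry into mitosis, had 127.1, 142.1 and 181.7 in high fat and 107.4, 101.8 and 187.8 in control lungs, so that a control mouse was the highest of all. Its log2 difference was 0.23 (limma adjusted p = 0.69). Cyclin A2 (Ccna2), the partner of CDK2 and CDK1 in S and G2, and cyclin B2 (Ccnb2), a mitotic partner of CDK1, were at -0.11 and 0.14 on the log2 scale (limma adjusted p = 0.87 and 0.82). Ccna2 ranged from 103.8 to 199.8 in high fat and 119.2 to 194.9 in control lungs, and Ccnb2 from 106.2 to 176.2 and from 90.3 to 165.5, so the ranges of the diets covered much the same signals. The other tested Ccna2 probe set was at -0.66 (limma adjusted p = 0.38 over probe sets). It had 46.2 to 202.4 in high fat and 136.1 to 177.9 in control lungs.

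Among the mitotic kinases and checkpoint proteins, Plk1 varied little between mice and Bub1 varied widely. Plk1, the Polo kinase of spindle assembly, had 104.2, 106.9 and 109.2 in high fat and 98.3, 114.5 and 102.9 in control lungs, a log2 difference of 0.02. Bub1, a checkpoint kinase at the kinetochore, had 147.6, 69.1 and 95 in high fat and 71.9, 40.1 and 47.4 in control lungs. Its 1.92-fold difference was not called (95% interval 1.00 to 3.69, limma adjusted p = 0.20), and the groups overlapped through high fat replicate 2. The mean log2 signal of Bub1, 6.16, lay just above the filter at 6.14. Its high fat mean was 6.63 and its control mean 5.69, so it passed the filter only through the high fat group. A dimmer Bub1 probe set that was not tested ran the other way, at 11.2 to 26.4 in high fat and 24.3 to 58.7 in control lungs. Aurka, the Aurora kinase of spindle poles, and Birc5, which encodes the chromosomal passenger survivin, were at 0.16 and -0.45 on the log2 scale (limma adjusted p = 0.83 and 0.40), the first with 1 high signal of 137.2 in high fat replicate 3 and the second with 1 low signal of 65.4 in high fat replicate 1.

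The tested partners of the anaphase-promoting complex and spindle proteins were not called, and their differences had both signs. Ube2c, the ubiquitin-conjugating enzyme of that complex, had 279.2, 171.2 and 402.4 in high fat and 203.1, 254.3 and 137.5 in control lungs (log2 difference 0.48, limma adjusted p = 0.42). Cdc20, the activator of the complex, had 378.8, 227.9 and 472.8 in high fat and 389.2, 233.5 and 280.4 in control lungs (0.23, limma adjusted p = 0.67). Without high fat replicate 3 the differences of Ube2c and Cdc20 were 0.19 and -0.0021. For both genes, 1 high fat mouse was the highest and another was lower than at least 2 control mice. Nusap1, which bundles spindle microtubules, was the only mitosis gene with every high fat mouse above every control mouse, at 215.0, 147.6 and 207.4 against 144.8, 127.7 and 129.7. The gap between the groups was small beside the spread of the high fat mice, and its log2 difference of 0.49 was not called (95% interval -0.07 to 1.04, limma adjusted p = 0.25). With each array centred on its median it was called, at 0.76 (limma adjusted p = 0.043), where the median of all genes was 0.33. A dim Nusap1 probe set that was not tested ran the other way. It had 4.77 to 15.8 in high fat and 6.14 to 38.6 in control lungs. Prc1, a bundler of the central spindle, was at 0.50 (limma adjusted p = 0.33). Tpx2, which activates Aurora A on the spindle, went the other way, at 85.9, 42.6 and 81.9 in high fat and 96.8, 88.2 and 106.6 in control lungs (-0.53, limma adjusted p = 0.40). It passed the filter only through its control mean, 6.60 on the log2 scale, against 6.06 in high fat lungs. A second tested Tpx2 probe set had overlapping groups and a log2 difference of -0.06. Dimmer Tpx2 probe sets that were not tested were at 0.32 and 0.19, also with overlapping groups. Of the 14 tested mitosis genes 11 had a positive and 3 a negative difference, with a median of 0.15 on the log2 scale, beside 56.4 percent positive and a median of 0.06 over all genes.

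**Figure D2:**
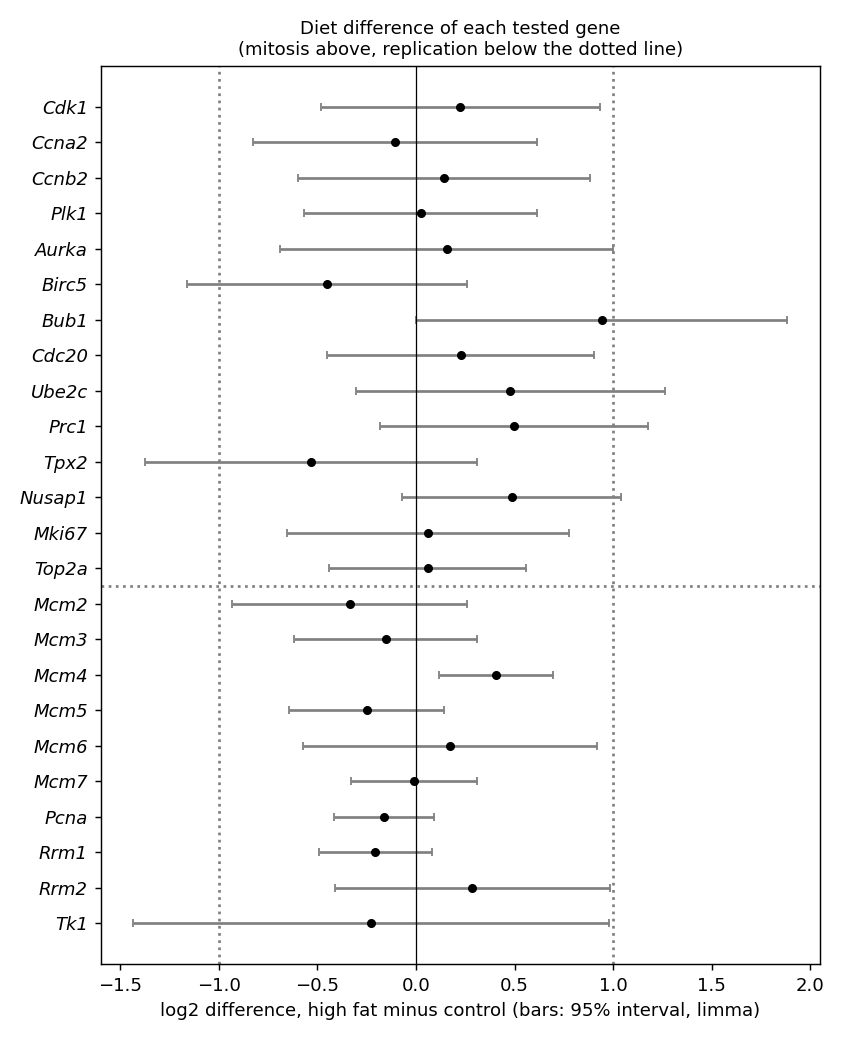
Log2 difference (high fat minus control) of each tested gene with its 95% interval from limma, with dotted vertical lines at a 2-fold difference either way. Every interval but those of Bub1 and Mcm4 includes 0, and no gene passed the adjusted test.

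Another 6 members had probe sets but none bright enough to test: the Aurora kinase of the chromosomal passenger complex Aurkb, the checkpoint kinase Bub1b, the spindle motors Kif11 and Kif20a, the kinetochore motor Cenpe and thymidylate synthase Tyms, which makes dTMP. Their 15 probe sets had signals between 2.06 and 124.2 in high fat and between 1.45 and 110.2 in control lungs. The groups overlapped for 13 of the 15, and the exceptions were a Kif11 and a Cenpe probe set with lower signals in every high fat mouse (34.0 to 52.4 against 71.0 to 77.3, and 9.08 to 13.8 against 19.7 to 41.7). Among all tested probe sets 36.2 percent did not overlap, and untested ones were not counted over the array. The other Kif11 probe sets were at -1.38 and 0.12 on the log2 scale, and the other Cenpe probe set was at 0.92. The 3 Bub1b probe sets had positive log2 differences, from 0.96 to 1.22. Those of Aurkb, Kif20a and Tyms lay between -0.91 and 0.72. The nearest member probe set under the filter, of Tpx2, had a mean log2 signal of 6.10, and the nearest above it was that of Bub1.

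The MCM subunits form 1 ring, the helicase that is loaded on origins before S phase. The differences of their transcripts had both signs, none of them called as deposited. Mcm4 had 1079, 1249 and 1152 in high fat and 806.0, 969.5 and 855.6 in control lungs. Every high fat mouse lay above every control mouse, and the 1.32-fold difference had the lowest p of the 24 members (95% interval 1.08 to 1.62, limma adjusted p = 0.094). A second Mcm4 probe set had the same order, at 597.2, 711.8 and 677.9 against 483.4, 514.8 and 438.1, and a similar fold of 1.38. Neither was called as deposited. With each array centred on its median the brighter one was called over genes (log2 0.68, limma adjusted p = 0.013). So was the second over probe sets (log2 0.74, limma adjusted p = 0.015). That centring moves the median log2 difference of all genes to 0.33, against 0.06 as deposited, so Mcm4 stood 0.35 above the median of all genes in either scale.

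Mcm2 and Mcm3 had negative differences on every tested probe set as deposited, none of them called. The brightest Mcm2 probe set had 482.4, 577.2 and 679.7 in high fat and 805.8, 475.0 and 995.0 in control lungs, with overlapping groups (log2 -0.34, limma adjusted p = 0.46). The other had 226.3, 221.3 and 220.4 in high fat and 269.7, 397.4 and 351.6 in control lungs, which did not overlap (-0.59, limma adjusted p = 0.084 over probe sets). All 4 tested Mcm3 probe sets had negative differences, from -0.15 for the brightest to -0.96 for the dimmest. In the dimmest, the high fat mice had 70.9, 109.0 and 101.0 and the control mice 224.3, 190.0 and 135.2, again without overlap and without a call (limma adjusted p = 0.070 over probe sets). With arrays centred on their median, which moved the median of all genes up by 0.27, the 4 Mcm3 probe sets were at 0.12, 0.0069, -0.36 and -0.69 from the brightest to the dimmest, and the 2 of Mcm2 at -0.06 and -0.32.

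The other subunits showed no common direction. The 4 tested Mcm7 probe sets were at -0.01, 0.18, 0.45 and -0.23 on the log2 scale from the brightest to the dimmest. Those at 0.18 and 0.45 had every high fat mouse above every control mouse and that at -0.23 every high fat mouse below, so probe sets of the same gene disagreed in sign with no overlap of the groups. With arrays centred on their median all 4 were above 0, at 0.26, 0.46, 0.73 and 0.04. Only that at 0.73 was then called (limma adjusted p = 0.023 over probe sets). Mcm5 likewise had -0.25 on its brighter and 0.10 on its dimmer probe set. Mcm6 had 766.3, 336.8 and 596.2 in high fat and 611.7, 324.1 and 541.7 in control lungs, a wide spread in both groups (0.17, limma adjusted p = 0.78). Over the 6 subunits the median difference of the brightest probe sets was -0.08 on the log2 scale, which turned to 0.19 with arrays centred on their median and to 0.14 with the brightest probe set that does not carry an s or x suffix, Affymetrix's mark for probes shared with other transcripts.

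**Figure D3:**
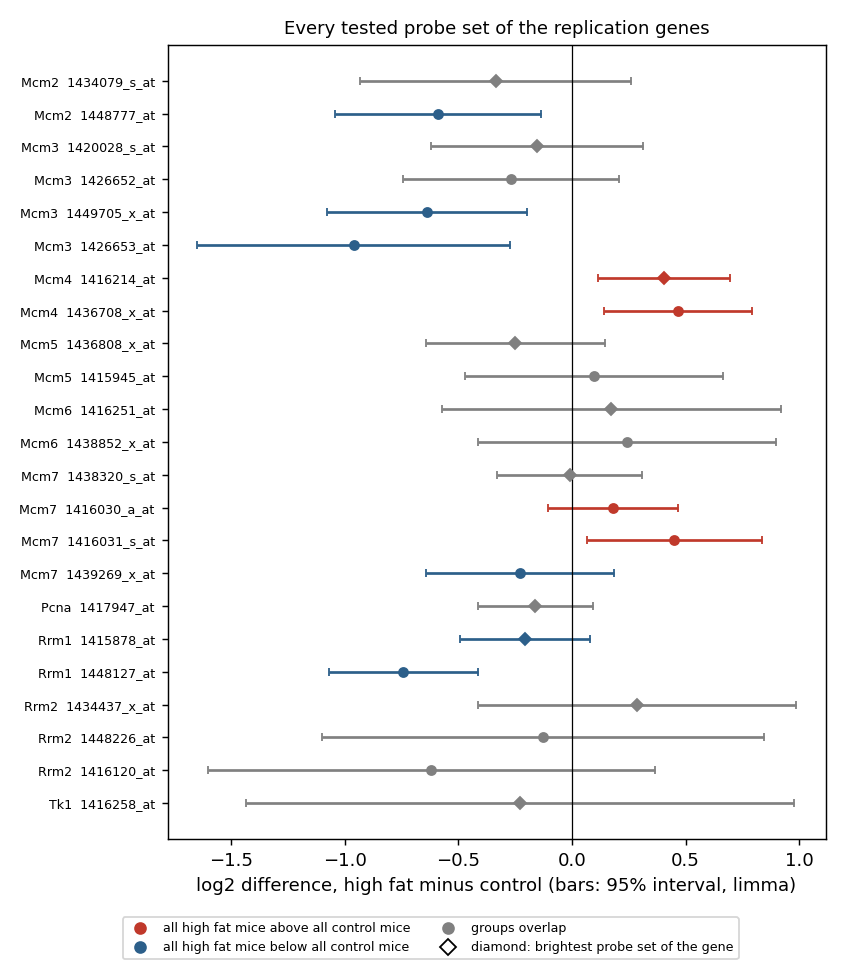
Log2 difference (high fat minus control) with its 95% interval for all 23 tested probe sets of the replication genes, brightest first within a gene. In the signals as deposited Mcm4 is higher on both probe sets, Mcm2, Mcm3 and Rrm1 have negative differences on every probe set, and Mcm5, Mcm7 and Rrm2 have probe sets on either side of 0.

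Ribonucleotide reductase, which makes deoxynucleotides, held the only member probe set that was called as deposited. Its large subunit is encoded by Rrm1, whose promoter stretch is printed with the others. The dimmer tested Rrm1 probe set had 340.9, 327.5 and 375.8 in high fat and 604.7, 590.0 and 550.1 in control lungs. This was 348 ± 25.0 in high fat and 582 ± 28.2 in control lungs (SD, n = 3 each), or 0.598 times the control level (limma adjusted p = 0.017 over probe sets). The brightest Rrm1 probe set also had every high fat mouse below every control mouse, at 558.5, 621.1 and 613.1 against 683.9, 689.5 and 692.5, but its 0.867-fold ratio was not called (95% interval 0.711 to 1.06, limma adjusted p = 0.34). The interval of the dimmer probe set, -1.07 to -0.41 on the log2 scale, and that of the brightest, -0.49 to 0.08, overlapped only narrowly, and a difference between the probe sets was not tested. The dimmer probe set was called in 11 of 16 alternatives. By limma it was not called without control replicate 1, 2 or 3 (adjusted p = 0.054, 0.064 and 0.061), with arrays centred on their median (log2 -0.47, adjusted p = 0.052) or without both mice numbered 1 (adjusted p = 0.083). Over probe sets, 1 of the 41 tested members was called, against 12.9 percent of all 27022 tested, 8.27 percent called lower among them. At an unadjusted p under 0.05 there were 8 of 41, against 31.1 percent of all, and the groups did not overlap for 12 of 41, against 36.2 percent of all.

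The remaining replication genes were not called. Pcna, the clamp that holds DNA polymerase on its template, had 5202, 5920 and 5829 in high fat and 6543, 5899 and 6500 in control lungs. It averaged 5651 ± 391 in high fat and 6314 ± 360 in control lungs (SD, n = 3 each), and its 95% interval, a fold of 0.751 to 1.07, was among the narrowest of the set (limma adjusted p = 0.40). Rrm2, the small subunit of ribonucleotide reductase, which is made in S phase, had 211.4, 281.1 and 438.4 in high fat and 316.0, 180.6 and 251.7 in control lungs on its brightest probe set, and its 3 tested probe sets were at 0.29, -0.13 and -0.62 on the log2 scale. Tk1, the thymidine kinase of S phase, had 45.6, 91.5 and 139.1 in high fat and 187.7, 80.4 and 61.7 in control lungs. The highest mouse exceeded the lowest 3.05-fold within the high fat group and 3.04-fold within the control group, and the Tk1 interval, -1.43 to 0.98, was the widest of the 24. Of the 10 replication genes tested, 7 had a negative difference as deposited. Centring arrays on their median moved the median of all genes up by 0.27 on the log2 scale, and 6 of the 7, all with differences smaller than that shift, were then above 0.

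A pattern shared by many members lay between mice. High fat replicate 3 had the highest signal of the 3 high fat mice for 17 of the 24 genes and the lowest for 0, while over all genes tested it was highest in its group for 34.1 percent and lowest for 30.1 percent. Among the 14 mitosis genes it was highest in its group for 11 and the highest of all 6 mice for 8, namely Ube2c, Cdc20, Mki67, Top2a, Ccnb2, Ccna2, Aurka and Prc1. On average these 14 genes stood 0.42 above their mean over the 6 mice on the log2 scale in high fat replicate 3, against -0.02 and -0.16 in high fat replicates 1 and 2 and 0.08, -0.15 and -0.17 in control replicates 1, 2 and 3. Among control mice, replicate 1 was highest for 13 of the 24 genes. Without high fat replicate 3 the median difference of the mitosis genes was -0.03, against 0.15 with all mice, and that of all 24 members was -0.11, against 0.06. Without control replicate 3 the median of the 24 was -0.00092 and that of the mitosis genes 0.09. These positions are descriptions of 6 arrays, and the genes are not independent of each other.

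**Figure D4:**
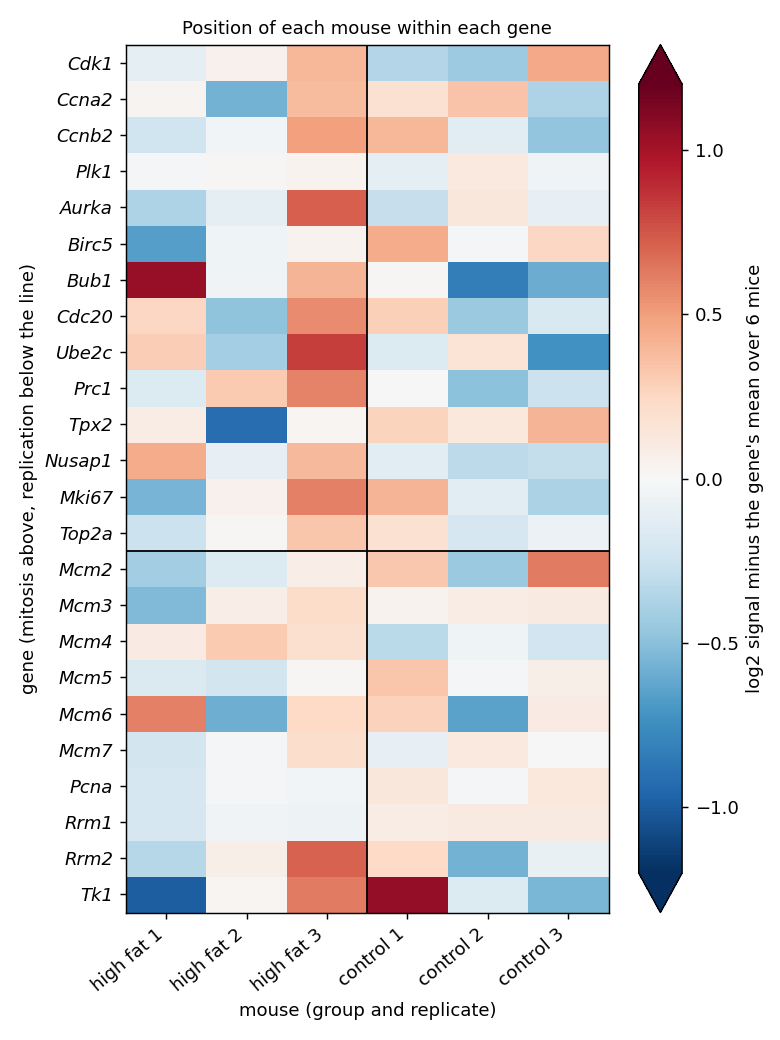
Log2 signal of each gene in each mouse, as the difference from the gene's mean over the 6 mice (red higher, blue lower), with high fat mice in the left and control mice in the right columns. The column of high fat replicate 3 is above the mean for 22 of the 24 genes, all but Pcna and Rrm1.

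The order of the high fat mice was compared with that of cell type markers. The summed signal of 9 tested alveolar macrophage markers was 10421, 16288 and 25760 in high fat replicates 1, 2 and 3 and 21939 to 25715 in control lungs. Chil3 carried that order, since without it the other 8 summed to 5565, 8636 and 8472 in the high fat mice and 9871 to 11408 in control lungs, and 5 of the 9 were highest in high fat replicate 2 and 4 in replicate 3. The summed signal of 12 T and NK cell markers was 3620, 4334 and 5452 in the high fat mice and 7068 to 8424 in control lungs, and that of 10 endothelial markers was 45292, 49376 and 59250 in the high fat mice and 51362 to 62157 in control lungs. High fat replicate 3 was the highest high fat mouse for 8 of the 12 and for 8 of the 10. Other sums had other orders: 12 B lineage markers summed to 11973, 6339 and 8584 in the high fat mice and 10529 to 43942 in control lungs. The brightest of them, Jchain, had 6157, 2631 and 1908 in the high fat mice and 3130 to 33001 in control lungs. By gene, 7 of the 12 were highest in high fat replicate 3 and 5 in replicate 1. The 6 tested neutrophil granule and precursor markers summed to 7189, 1856 and 3306 and to 4919 to 14473. Most of the sum in high fat replicate 1 was Ltf, which had 5512, 261.1 and 456.9 in the high fat mice. Of the 6, 3 were highest in high fat replicate 3, 2 in replicate 2 and 1 in replicate 1. The 3 tested erythroid markers summed to 4868, 3026 and 3887 and to 6599 to 10221. Cardiac and adipocyte markers were highest in high fat replicate 1 (10 markers at 167930, 45347 and 67905 against 21335 to 48546, and 7 at 33732, 23171 and 23767 against 2457 to 6067). Of these lists limma called 4 of 12 B lineage, 4 of 12 T and NK cell, 4 of 9 macrophage, 2 of 6 neutrophil, 2 of 3 erythroid and 2 of 10 endothelial markers lower, and 6 of 7 adipocyte and 1 of 10 cardiac markers higher in high fat lungs, beside 2.20 percent called lower and 4.56 percent called higher over all genes. Siglecf of the macrophage list and Mmp8 of the neutrophil list, both called lower, passed the filter only through their control mean. The genes of highest mean signal in each list, with their log2 differences, were Jchain (-1.97) and Ms4a1 (-1.39) for B lineage, Ms4a4b (-1.27) and Gzma (-0.48) for T and NK cells, Chil3 (-0.57) and Car4 (-0.30) for macrophages, S100a9 (-1.93) and S100a8 (-1.47) for neutrophils, and Alas2 (-1.04) and Hbb-b2 (-1.23) for erythroid cells. In the other lists they were Ramp2 (0.21) and Cldn5 (-0.42) for endothelium, Fabp4 (2.94) and Adipoq (3.28) for adipocytes, Actc1 (0.91) and Myl7 (1.66) for heart, Acta1 (-0.83) and Ckm (0.55) for skeletal muscle, and Scgb1a1 (0.21) and Sftpc (0.11) for lung epithelium. The 24 cell cycle genes summed to 12255, 13081 and 14855 in high fat and 12793 to 14448 in control lungs. The lowest signals in the macrophage and the T and NK cell lists were 38.9 for Siglecf and 69.3 for Cd8b1, both in a high fat lung. Skeletal muscle markers were highest in the mice numbered 1, with sums of 18176, 1283 and 1484 in high fat and 59172, 578 and 3197 in control lungs. The 9 tested lung epithelial markers summed to 299696, 297708 and 331194 in the high fat mice and 215088 to 352595 in control lungs. For 6 of these 9, high fat replicate 3 was the highest high fat mouse. The part of any of these cell types in the signals of the cell cycle genes was not tested.

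Further genes of the same pathways, listed by function and not by how they moved, gave 1 called gene. Over all genes tested, limma called 6.75 percent, and 25.5 percent had an unadjusted p under 0.05. Of all genes 56.4 percent had a positive difference, and the median was 0.06 on the log2 scale. Of 23 tested genes of replication outside the members, limma called 0, and 3 had an unadjusted p under 0.05 (median log2 difference -0.28, 6 positive). Slbp, which binds histone mRNA, and Gins4, a part of the replicative helicase complex, had the brightest probe sets, at 0.08 and -0.33. A dimmer Slbp probe set was at -0.93, with 85.2, 80.7 and 104.3 in high fat and 180.7, 202.5 and 134.1 in control lungs, without overlap (limma adjusted p = 0.060 over probe sets). Of 33 tested mitosis genes outside the members, limma called 1 higher and 0 lower, and 5 had an unadjusted p under 0.05 (median -0.09, 12 positive). The called gene was Cks1b, a small subunit of CDK complexes that also helps to degrade the inhibitor p27. It had 1486, 1332 and 1479 in high fat and 757.4, 798.4 and 618.1 in control lungs, which is 1.99-fold (95% interval 1.60 to 2.46, limma adjusted p = 0.0080). Its other probe set, at 266.0, 285.0 and 415.9 against 372.9, 236.5 and 258.0, was not called and differed by 0.16 on the log2 scale. Cks1b was called in 18 of 19 alternatives, the exception being the mean of both probe sets, at 0.57 (limma adjusted p = 0.080).

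Within the list of mitosis genes outside the members, high fat replicate 3 was the highest high fat mouse for 22 of 33 genes and the lowest for 4. Among the 23 replication genes outside the members it was highest for 13 and lowest for 6. Over all genes these shares were 34.1 and 30.1 percent. By mean signal the brightest gene of the mitosis list was Pttg1, which encodes securin, the inhibitor of sister chromatid separation. Its signal fell into separate levels that crossed the diets: 16353, 1804 and 9795 in the high fat mice, against 1478, 1422 and 8821 in the control mice. High fat replicates 1 and 3 and control replicate 3 were thus several fold above the other 3 mice. A second tested Pttg1 probe set had the same division, at 2168, 333.7 and 1325 in high fat and 208.6, 268.3 and 1407 in control lungs, and neither was called. The histone variant gene H2az1, next by mean signal and first by mean log2 signal, had 5697 to 7209 in high fat and 5080 to 6380 in control lungs. Stmn1, which encodes the microtubule destabilizer stathmin and is second by mean log2 signal, had 3989 to 6358 in high fat and 6019 to 7091 in control lungs (log2 difference -0.35, limma adjusted p = 0.23).

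Regulators upstream of S phase were not called at the level of genes either. Of 23 tested G1 cyclins, CDKs and E2F and RB family members, limma called 0, against 6.75 percent of all genes. At a limma unadjusted p under 0.05 there were 3 of 23, against 25.5 percent of all genes. The median log2 difference of the 23 was -0.09 and 7 were positive, beside 0.06 and 56.4 percent over all genes. The brightest were Ccnd2 and Ccnd1, the D-type cyclins that activate CDK4 and CDK6. Ccnd1 had 3628, 3713 and 4392 in high fat and 3211, 3372 and 2896 in control lungs on its brightest probe set. All 3 of its probe sets had every high fat mouse above every control mouse, with folds of 1.24, 1.40 and 1.32, and the second was called over probe sets (limma adjusted p = 0.044). The Ccnd2 probe sets differed in sign, from -0.66 to 0.66 on the log2 scale.

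Of 21 tested CDK inhibitors and p53 targets, limma called 0, against 6.75 percent of all genes. At a limma unadjusted p under 0.05 there were 6 of 21, against 25.5 percent of all genes. The median log2 difference of the 21 was 0.03 and 11 were positive, beside 0.06 and 56.4 percent over all genes. Btg1, an antiproliferative factor, and Trp53inp1, a p53 target, were the brightest, at 0.33 and 0.27 on the log2 scale (limma adjusted p = 0.12 and 0.51). Other tested probe sets were at 0.14 and -0.15 for Btg1 and at -0.56 for Trp53inp1. Cdkn1a, which encodes the CDK inhibitor p21, was picked out after its values were seen. Its brightest probe set had 1865, 2006 and 1297 in high fat and 1216, 425.8 and 471.5 in control lungs, a 2.71-fold difference that missed the threshold over genes and passed it over probe sets (limma adjusted p = 0.051 and 0.036). Its other tested probe set had 411.0, 920.3 and 688.2 in high fat and 428.4, 208.6 and 272.4 in control lungs, with overlapping groups and a 2.20-fold difference (limma adjusted p = 0.057 over probe sets).

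A measure of RNA quality did not overlap between the groups. For control transcripts, the 3' probe set's signal divided by that of the 5' one was 0.915 ± 0.054 in high fat and 0.768 ± 0.026 in control lungs for Gapdh and 1.52 ± 0.022 and 1.31 ± 0.12 for b-Actin (SD, n = 3 each; exact two-sided permutation p = 0.1 for each, the smallest that 3 against 3 mice allow). Correlations of log2 signals over tested probe sets, which are not independent, were 0.951 to 0.961 within high fat, 0.945 to 0.962 within control and 0.902 to 0.938 between the groups. The part of RNA quality in the disagreement between probe sets of Rrm1, Mcm2, Mcm3, Mcm7 and Cks1b was not tested.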

How the data were processed

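Signals of 6 arrays were analysed, 3 from lungs of high fat mice and 3 from lungs of control mice. Per the submitters' processing notes the deposited intensity values were made by the authors with MAS5, with no version or settings stated. The values are linear, and their trimmed mean was 500 on every array. The number of arrays limits the precision. Symbols came from the platform annotation, in which 34958 probe sets carry 1 symbol, 932 several and 9211 none. An Entrez lookup in the RefSeq table of GRCm38.p6 found 34754 and changed 0. Affymetrix's 64 control probe sets were not tested.

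Values were raised to a floor of 1 before the log2 step. The test was limma (version 3.58.1, R 4.3.3) with an intensity trend and a term for diet (4 residual degrees of freedom), two-sided, over 27022 probe sets at or above the 40th percentile. Adjusted p-values for genes are over 12689 brightest probe sets. Intervals are 95% and use limma's moderated error. Nothing in the labels names the mice as littermates. A limma p-value sets the diet difference against a moderated error from the spread between mice of the same group. The script was tested on simulated data.

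The members and all gene lists were chosen with earlier results of these data known. Every member is named, and of the other cell cycle lists the called genes and the 2 brightest by mean signal, with Stmn1 added because mean log2 signal ranks it second. Cdkn1a was added after its values were seen. Of marker lists, sums of signals are given. The skeletal muscle and lung epithelial lists had 0 called genes, beside 6.75 percent of all genes. At an unadjusted p under 0.05 (limma) they had 0 of 8 and 2 of 9, beside 25.5 percent of all genes. Replicate numbers are shared by the groups, but deviations of same-numbered mice correlated at 0.167, 0.108 and -0.0413, so they were not taken as pairs.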

Additional observations from a re-analysis of the deposited data

How the results depend on the processing

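Over 19 alternatives, 9 of the 24 members (Mcm4, Nusap1, Prc1, Bub1, Birc5, Mcm2, Tpx2, Cdk1 and Ube2c) kept their sign wherever they were tested. Log2 differences that turned sign are given next, and outside centring the cause was not tested. Centring adds the same 0.27 to every log2 difference. The median signal of an array as deposited was 113.4 to 128.7 in high fat and 143.3 to 150.3 in control lungs. With arrays centred on their median they were Ccna2 0.17, Mcm3 0.12, Mcm5 0.025, Mcm7 0.26, Pcna 0.11, Rrm1 0.068 and Tk1 0.047, and the median of all genes was 0.33. With quantile normalization they were Ccna2 0.16 and Tk1 0.060. With the mean of all probe sets they were Mcm5 0.28, Mcm7 0.10 and Rrm2 -0.15, and with the probe set of highest variance Mcm5 0.10, Mcm7 0.45 and Rrm2 -0.62. Array weights gave Mcm7 0.0044. Chosen after seeing the data, probe sets without an s or x suffix gave Mcm5 0.10, Mcm7 0.18 and Rrm2 -0.13, and leaving out both mice numbered 1 gave Mcm3 0.052, Mcm7 0.043, Plk1 -0.0061 and Tk1 0.68. Leaving out 1 mouse at a time gave Aurka -0.16 to 0.38, Ccna2 -0.32 to 0.15, Ccnb2 -0.066 to 0.38, Cdc20 -0.0021 to 0.52, Mcm3 -0.30 to 0.071, Mcm6 -0.10 to 0.51, Mcm7 -0.12 to 0.10, Mki67 -0.23 to 0.36, Plk1 -0.024 to 0.086, Tk1 -0.60 to 0.24 and Top2a -0.089 to 0.20. The median of the members was 0.34 with centring, 0.26 with quantile normalization (0.10 over all genes), 0.25 without both mice numbered 1 (0.05 over all genes) and -0.11 to 0.18 leaving out 1 mouse. That of mitosis genes was 0.42 with centring, 0.40 with quantile normalization and -0.03 to 0.32. That of the MCM subunits was 0.19 with centring and with the mean of probe sets, 0.14 with highest variance and without s or x suffixes, and -0.21 to -0.0069. By limma, centring called 2 of 24 members higher (Mcm4 and Nusap1), while it called 3208 genes over the array, against 857 as deposited. The highest-variance probe set called 1 of 24 members lower (Rrm1, log2 -0.74), while it called 1819 genes. Genes called over the array numbered 857, against 3208 with centring, 515 with the mean, 136 without an intensity trend, 1819 with highest variance, 307 without both mice numbered 1 and 160 to 566 leaving out 1 mouse. Probe sets called numbered 3486, against 5448 with centring, 1274 without both mice numbered 1 and 721 to 3307. Fitted with the replicate number as a block, genes called numbered 737 and probe sets 3052, with 0 members called, and the block moved no other call of a member. High fat replicates 1 and 2 but not 3 correlated best with the control mouse of their own number. Signals near the filter limit what can be seen of the dim mitosis genes.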
